A study of Homo sapiens with 6 samples.

Results

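The set holds 37 genes of the hypoxia response and of glycolysis, chosen by symbol, of which 36 had a probe set with that symbol among the 19775 genes of the array; CA9 is not analysed here. Each gene was read through the probe set with the highest mean over the 6 arrays. All 36 reached the level needed for testing, a mean log2 signal of 4.73, as did 14513 genes in all. They fall into 20 genes of glucose uptake and glycolysis, 15 of them glycolytic enzymes, and 16 other targets of the hypoxia response. Messenger RNA had been measured on 6 single-colour arrays, 2 per group. U87MGR is a highly invasive line and U87MGL a non-invasive line, both obtained from the human glioma line U87MG by repeated passage through the brains of nude mice, and U87MG is the parental line. The arrays of U87MGR and of U87MGL carry the line numbers 2 and 3, so each derivative is represented by a pair of numbered lines, and their spread may include differences between lines. Per the labels' protocols, the tumour-bearing brains were dissociated and freed of red blood cells only, and the cells were then cultured in serum-containing medium. The oxygen level of the cultures was not given in the sources used here.

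Cells short of oxygen switch on a shared set of genes through the hypoxia-inducible factors (HIF). When oxygen is plentiful, the prolyl hydroxylases encoded by EGLN1 and EGLN3 mark the HIF alpha subunits HIF1A and EPAS1 for destruction by the VHL ubiquitin ligase; without oxygen the alpha subunits persist, pair with ARNT and bind short response elements in their target genes. The targets bring glucose into the cell, run it through glycolysis to lactate, keep pyruvate out of the mitochondria, export acid, recruit blood vessels and restrain growth. Glioblastoma is known for poorly oxygenated zones and for heavy use of glucose, and several of these genes are used as markers of such zones. Glycolytic genes also answer to growth factors, MYC and nutrient supply, so a change in them is not by itself a reading of oxygen.

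The core of the HIF response element is written ACGTG or GCGTG. Promoter windows from RefSeq (GRCh38.p14), 250 bases before to 50 bases after a gene's start, were at hand for 33 of the 37 genes, and 30 of these held at least 1 core on either strand in at least 1 window. By window, ACGTG occurred in 44.8% of the 58 windows of the set and in 24.4% of the windows of all tested genes, and GCGTG in 39.7% and 46.3%. Among genes with a single window, at least 1 core of either spelling was present in 86.4% of the 22 in the set and in 61.1% of tested genes. Where ACGTG overlaps its own reverse complement, as in CACGTG, the window was counted once. These letters are a description of the sequence and do not show binding. The windows below belong to the 4 genes with the largest fold changes among those whose window holds a core, and the capitals mark the cores (ACGTG or GCGTG, or CACGT or CACGC when read on the opposite strand). That of ANGPTL4 lies at chr19:8363905-8364204 (plus strand), with its core 234 bases before the start. The SLC2A1 window at chr1:42958819-42959118 (minus strand) holds its only core downstream of the start. In DDIT4, at chr10:72273674-72273973 (plus strand), cores begin 219, 125 and 53 bases before the start and once after it. The MXI1 window at chr10:110209981-110210280 (plus strand), 1 of 3 windows of that gene, holds cores 127 and 113 bases before the start.
ANGPTL4: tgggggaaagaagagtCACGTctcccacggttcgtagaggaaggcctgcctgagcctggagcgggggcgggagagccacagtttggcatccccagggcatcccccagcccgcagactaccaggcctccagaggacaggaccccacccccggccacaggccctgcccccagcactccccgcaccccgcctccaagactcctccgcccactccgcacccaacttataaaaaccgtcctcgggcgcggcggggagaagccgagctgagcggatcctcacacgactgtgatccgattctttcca
SLC2A1: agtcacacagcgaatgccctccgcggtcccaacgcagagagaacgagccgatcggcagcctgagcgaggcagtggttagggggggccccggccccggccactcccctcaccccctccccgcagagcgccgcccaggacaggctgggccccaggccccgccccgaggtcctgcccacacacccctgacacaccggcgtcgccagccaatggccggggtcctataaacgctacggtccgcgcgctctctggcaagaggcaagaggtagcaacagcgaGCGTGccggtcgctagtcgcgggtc
DDIT4: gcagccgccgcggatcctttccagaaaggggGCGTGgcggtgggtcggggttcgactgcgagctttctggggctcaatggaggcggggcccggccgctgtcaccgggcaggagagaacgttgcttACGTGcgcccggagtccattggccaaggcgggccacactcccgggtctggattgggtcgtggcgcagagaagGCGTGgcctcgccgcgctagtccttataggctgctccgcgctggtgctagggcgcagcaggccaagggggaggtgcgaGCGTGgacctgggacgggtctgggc
MXI1: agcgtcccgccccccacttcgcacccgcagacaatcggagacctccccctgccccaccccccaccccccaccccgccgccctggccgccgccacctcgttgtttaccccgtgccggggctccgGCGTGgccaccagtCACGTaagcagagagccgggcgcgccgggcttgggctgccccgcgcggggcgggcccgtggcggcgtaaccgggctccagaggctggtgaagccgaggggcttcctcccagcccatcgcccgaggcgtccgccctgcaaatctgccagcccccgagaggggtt

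Glial markers of the labelled cell type were partly absent. The intermediate filament gene VIM had log2 signals of 14.30 to 14.46 and the adhesion receptor gene CD44 of 12.96 to 13.30 over the 6 arrays. GFAP, SOX2, OLIG2 and FABP7 lay at 4.77 to 5.76, close to the level needed for testing. CHI3L1, a secreted glycoprotein of mesenchymal glioma, differed between the lines, with 10.46 and 10.10 in U87MGR, 9.83 and 8.58 in U87MGL, and 13.35 and 13.32 in U87MG. It fell in U87MGR (log2 fold change -3.05, limma adjusted p = 0.0185) and in U87MGL (-4.13, limma adjusted p = 0.00795) relative to U87MG, the first call being lost without either U87MGR array and both with a spike-in cluster block (limma adjusted p of 0.0747 to 0.259). NES, the nestin gene, differed by 1.18 and 1.14 there without a call. The part of these marker differences in the results on the set was not tested. For other brain cells, 3 of 6 microglial, 5 of 6 endothelial, all 6 neuronal and 1 of 5 oligodendrocyte markers were tested. In no comparison did limma call any of them. The neuronal SNAP25 was the brightest, at 9.21 to 9.73, and SYT1 had both U87MGR arrays (7.20 and 7.53) above the other 4. With no adjustment of p, at most 2 neuronal genes passed 0.05 in one direction in a comparison (U87MGR above U87MG, 11% of all tested genes). So did 1 oligodendrocyte gene (U87MGL below U87MG, 10.1%). These probe sets are of human genes, and carry-over of mouse brain cells was not tested. Spiked-in control RNA grouped the arrays in another way than the cell lines: U87MGR replicate 1 with both U87MGL arrays, U87MGR replicate 2 with U87MG replicate 1, and U87MG replicate 2 alone. Distances over 42 control probe sets were 0.882 to 1.41 within these spike-in clusters and 5.56 to 8.83 between them. RNA quality was read from the GAPDH control probe sets, whose 3′ minus 5′ difference was 0.24 in replicate 2 of U87MGR and 0.03 to 0.07 elsewhere. The ACTB control probe sets did not single out that array, with differences of 0.28 and 0.25 in U87MGR replicates 1 and 2, 0.39 and 0.28 in U87MGL, and -0.0074 and 0.22 in U87MG.

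Across the 6 arrays the hypoxia and glycolysis genes were high in both U87MGL arrays and low in 1 array of each of the other groups. Of the 36 genes, 18 had their lowest value in U87MG replicate 2 and 16 in U87MGR replicate 2; over all tested genes these arrays held the lowest value of 25.9% and 19.9%. The highest value lay in U87MGL replicate 1 for 17 genes, in U87MG replicate 1 for 9 and in U87MGL replicate 2 for 8. Over all tested genes the matching shares were 13.1%, 18.9% and 15.1%. Measured as each gene's distance from its own 6-array mean, the median of the 16 other hypoxia targets was 0.03 and -0.61 in U87MGR replicates 1 and 2, 0.32 and 0.28 in U87MGL, and 0.28 and -0.35 in U87MG. That of the 20 glucose and glycolysis genes was 0.06 and -0.21 in U87MGR, 0.24 and 0.21 in U87MGL, and -0.02 and -0.28 in U87MG. Both U87MGL arrays lay above the other 4 for 15 of the 36 genes and below them for 1 (11.3% of all tested genes in each direction). Both U87MGR arrays lay above the other 4 for 0 genes and below them for 3, BNIP3L, DDIT4 and MXI1 (7.85% and 8.79%), and both U87MG arrays lay above for 1 and below for 4 (16.2% and 17.1%). Only in U87MGL did both replicates stand on the same side of 0 in both lists, while the median over all tested genes stayed within 0.02 of 0 in every array. In these bulk measurements, fewer cells with a transcript and less of it per cell cannot be told apart.

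**Figure D1:**
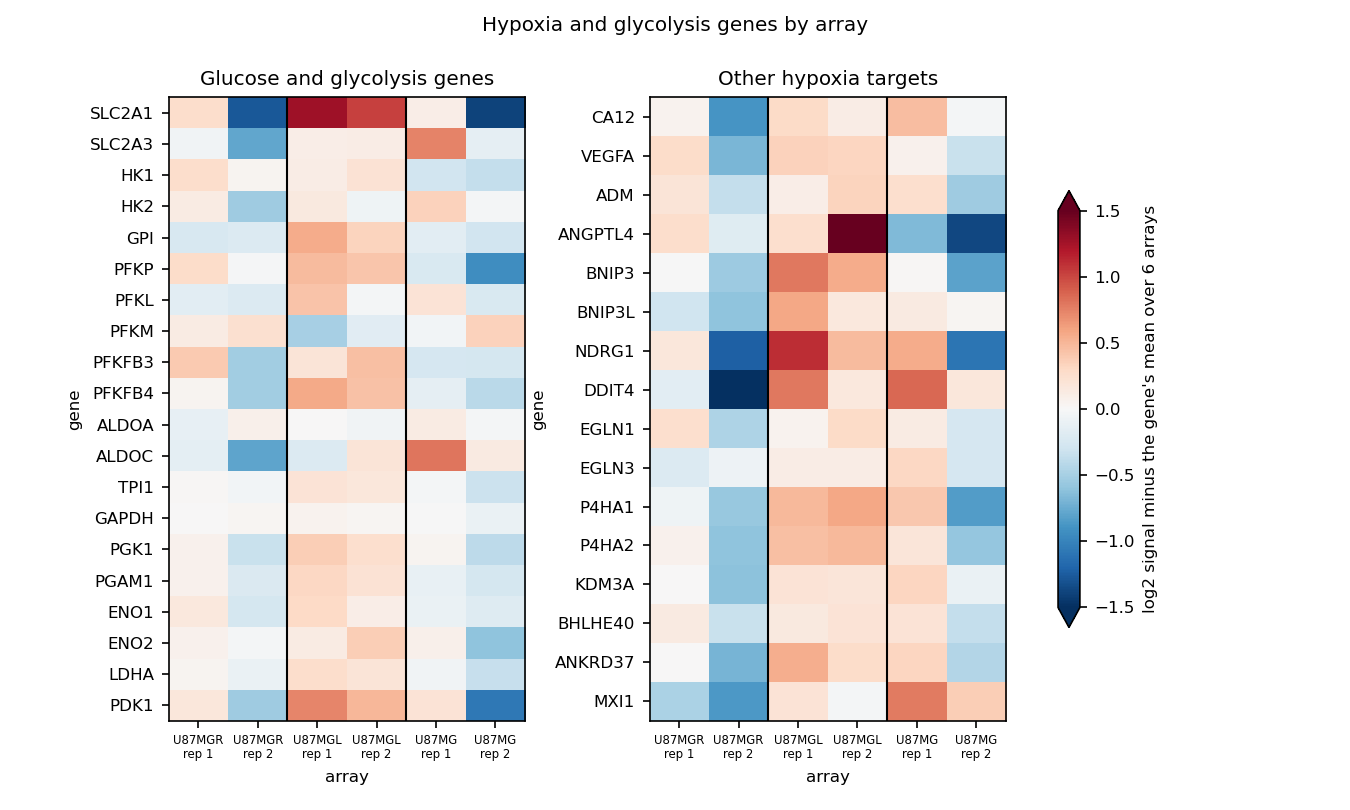
Log2 signal of each of the 36 genes (rows) in each array (columns, 2 replicates per line) minus that gene's mean over the 6 arrays, with red above and blue below the mean. The U87MGL columns are mostly red, and the replicate 2 columns of U87MGR and U87MG are mostly blue, for example SLC2A1 and NDRG1.

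The replicates of U87MGR and of U87MG thus differed among themselves in these genes. In U87MGR, 31 of the 36 genes were higher in replicate 1 than in replicate 2, with a median difference of 0.49 on the log2 scale, where 50.3% of all tested genes were higher in replicate 1. In U87MG, 35 of the 36 were higher in replicate 1, with a median of 0.43, against 53.2% of all tested genes. U87MGL replicates differed by a median of 0.06, with 24 genes higher in replicate 1 (49.7% of all tested genes). Within both U87MGR and U87MG the distance was wider for the other hypoxia targets, at medians of 0.59 and 0.63, than for the glucose and glycolysis genes, at 0.28 and 0.29. NDRG1 and SLC2A1 differed most between the U87MG replicates (1.65 and 1.49), and DDIT4 and SLC2A1 between the U87MGR replicates (1.66 and 1.53). These differences have no test, since each is a single pair of arrays.

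**Figure D2:**
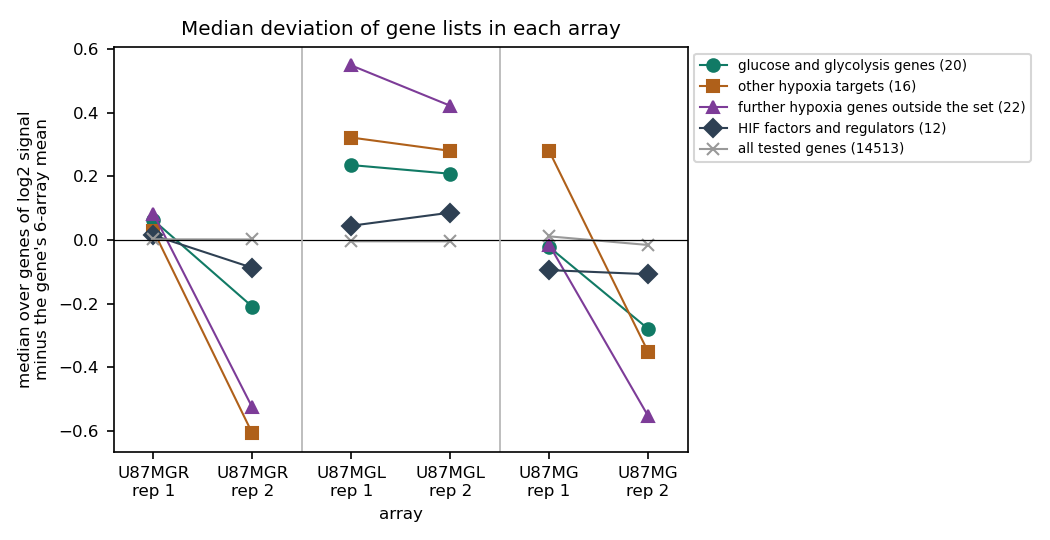
Median over the genes of a list of the log2 signal minus each gene's 6-array mean (vertical axis), for each array (horizontal axis); lines join the replicates of a line, and numbers in the legend are genes per list. Replicate 2 of U87MGR and of U87MG lies below replicate 1 in all 3 hypoxia and glycolysis lists, both U87MGL arrays lie above 0 in them, and all tested genes stay near 0.

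U87MGR against U87MGL sets invasive cells against non-invasive cells of the same origin. Nearly the whole set was lower in the invasive line: 35 of 36 genes had a mean below that of U87MGL (32 of 36 after quantile normalization or after centring each array on its median), where 49.7% of all tested genes did. The median log2 fold change was -0.75 over the other hypoxia targets and -0.33 over the glucose and glycolysis genes, where it was 0.0020 over all tested genes. For 25 genes both U87MGR arrays lay below both U87MGL arrays, as for 23.3% of all tested genes; these were 13 of the 16 other targets and 12 of the 20 glucose and glycolysis genes. The largest differences were in SLC2A1, DDIT4 and NDRG1.

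No single gene passed the test in that comparison. limma called 0 of the 36 higher and 0 lower (over all tested genes 0.0413% were called higher and 0.117% lower), and with no adjustment 1 was higher and 9 were lower at p under 0.05 (3.91% and 4.94% of all tested genes). The smallest limma adjusted p was 0.242, for GPI. The size depended on which U87MGR array was kept. When replicate 2 was left out the medians were -0.41 for the other targets and -0.17 for the glucose and glycolysis genes. When replicate 1 was left out they were -1.05 and -0.47. With 2 arrays per group, leaving out either moves each gene's mean equally far in opposite directions, so this cannot single out 1 array. Replicate 2 had the highest GAPDH 3′ minus 5′ difference but not the highest ACTB one. Leaving out U87MGR replicate 2 gives the same values as the comparison within the spike-in cluster that holds both groups, and 31 of 36 genes were then below 0. The part of RNA quality or of the spike-in clusters in these differences was not tested.

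U87MGR against U87MG asks whether the invasive cells differ from the line they came from. Here the set had no common direction, with 18 genes above 0 and 18 below (49.4% and 50.6% of all tested genes; 14 and 22 members after centring each array on its median), 4 genes with both U87MGR arrays above both U87MG arrays and 4 with both below (24.2% each), and medians of 0.09 for the glucose and glycolysis genes and -0.13 for the other targets. limma called 1 gene, MXI1, which fell 2.36-fold (1.44% of all tested genes were called lower), and 0 higher (1.86%); before adjustment 2 were higher and 4 lower at p under 0.05 (11% and 9.78%). The medians turned with the array left out. For the glucose and glycolysis genes and then the other targets, they were -0.063 and -0.47 with U87MGR replicate 1 left out, 0.24 and 0.18 with its replicate 2 left out, 0.18 and 0.14 with U87MG replicate 1 left out, and -0.057 and -0.52 with its replicate 2 left out. U87MGR replicate 2 and U87MG replicate 1, which share a spike-in cluster, differed by medians of -0.13 and -0.77. With 2 spike-in clusters as a block 10 genes were above 0 and 26 below, and with 3 clusters 5 and 31, so that most were then below 0. In this comparison the block of 2 clusters gives the same fold changes as leaving out U87MGR replicate 1, so it adds nothing to that result. Leaving out 1 array at a time, the limma adjusted p of MXI1 was above 0.05 for U87MGR replicate 1 (0.109) and replicate 2 (0.202), for either U87MGL array (0.0646) and for U87MG replicate 1 (0.0557), and in the last of these PFKP was called higher, with the lone array of a group assumed to vary like the others.

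U87MGL against U87MG sets the non-invasive derivative against the parental line. Most of the set was higher in U87MGL, with 28 of 36 genes above 0 and 8 below (48.1% and 51.9% of all tested genes) and medians of 0.44 for the glucose and glycolysis genes and 0.32 for the other targets. The count above 0 was 23 without U87MG replicate 2, 19 with 2 spike-in clusters as a block and 12 with 3, so that the majority turned in the last. Both U87MGL arrays lay above both U87MG arrays for 20 genes, 14 of them of the glucose and glycolysis list (28.1% of all tested genes), and below for 2, PFKM and MXI1 (28.3%). limma called 0 of the 36 higher and 0 lower (3.02% and 1.8% of all tested genes), and before adjustment 10 were higher and 1 was lower at p under 0.05 (13.2% and 10.1%). With limma's trended and robust variance, GPI and PFKP were called higher, among 460 of all tested genes. Without U87MG replicate 1, 33 of the 36 genes were above 0 and 3 below, with a median of 0.54. Without U87MGL replicate 1 the counts were 27 and 9, with a median of 0.37. In each case 1 group was then a lone array. Without U87MG replicate 2 the median of the other targets was 0.069. No spike-in cluster held arrays of both lines. In a fit with 3 clusters as a block, which reaches U87MG through the U87MGR arrays and drops U87MG replicate 2, the medians were 0.00017 and -0.60, so the direction of the other targets turned. The comparisons with U87MG share its arrays and are not independent of each other.

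**Figure D3:**
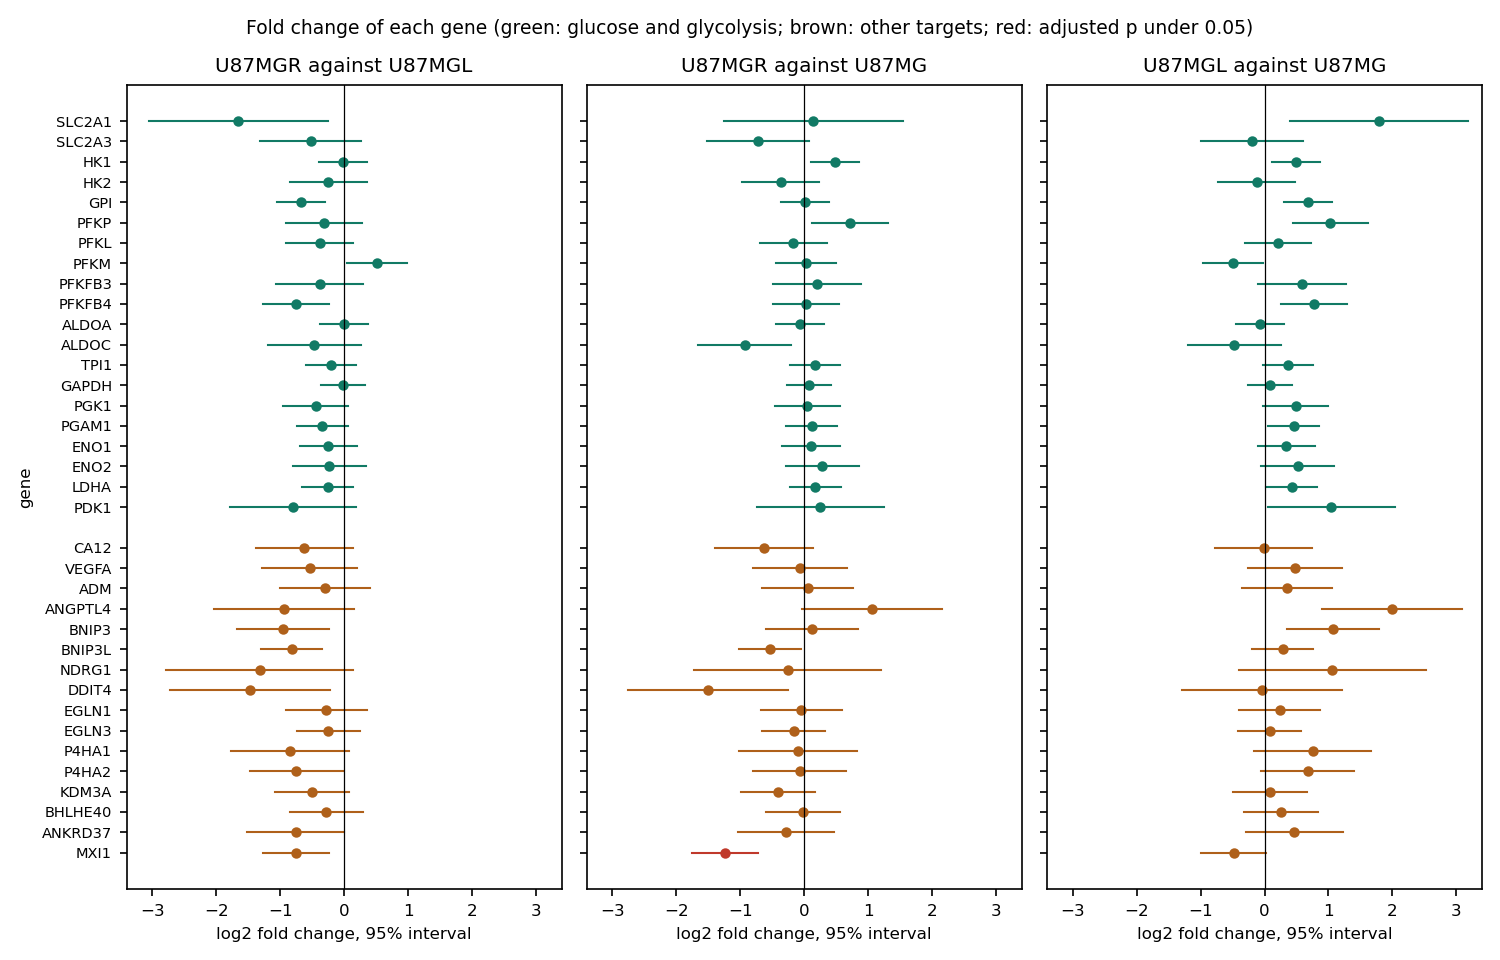
Log2 fold change (horizontal axis) of each of the 36 genes (rows) in each comparison, with its 95% confidence interval from limma; green marks glucose and glycolysis genes, brown the other targets and red the called gene. All points but PFKM lie below 0 in the comparison of the derivatives, most lie above 0 in U87MGL against U87MG, and MXI1 is the only call.

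Among the glucose and glycolysis genes SLC2A1 had the largest differences in both comparisons with U87MGL, and ALDOC in U87MGR against U87MG. SLC2A1, which encodes the glucose transporter GLUT1, had log2 signals of 9.42 and 7.88 in U87MGR, 10.43 and 10.18 in U87MGL, and 9.26 and 7.77 in U87MG. Both U87MGL arrays stood above the other 4, and the U87MGR and U87MG arrays overlapped. Its mean was 3.14-fold lower in U87MGR than in U87MGL (log2 fold change -1.65, SE 0.59, limma adjusted p = 0.475) and 3.46-fold higher in U87MGL than in U87MG (1.79, SE 0.59, limma adjusted p = 0.135). The dimmer SLC2A1 probe set differed by -1.95 and 2.56 in these comparisons, and without U87MGR replicate 2 the first difference was -0.89. SLC2A3, encoding the high-affinity transporter GLUT3 that neurons rely on, had 9.84 and 9.11 in U87MGR, 9.99 and 10.00 in U87MGL, and 10.64 and 9.76 in U87MG. It differed by -0.52 between U87MGR and U87MGL, where the arrays did not overlap, and by -0.72 between U87MGR and U87MG, where they did.

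Among the regulators, PFKFB4 makes the activator of phosphofructokinase. It had signals of 10.39 and 9.83 in U87MGR, 10.92 and 10.79 in U87MGL, and 10.21 and 9.95 in U87MG, with both U87MGL arrays on top. Relative to U87MGL its log2 fold change in U87MGR was -0.75 (SE 0.22, limma adjusted p = 0.373), and U87MGL differed from U87MG by 0.78 (SE 0.22, limma adjusted p = 0.0964). PDK1, the kinase that shuts pyruvate dehydrogenase and so keeps pyruvate out of the mitochondria, had 10.32 and 9.61 in U87MGR, 10.88 and 10.64 in U87MGL, and 10.35 and 9.07 in U87MG. U87MGL was again above the other 4 arrays. The log2 fold change was -0.79 in U87MGR relative to U87MGL and 1.05 in U87MGL relative to U87MG (SE 0.42 each), and neither passed in limma. PFKFB3, a sister enzyme of PFKFB4, differed by -0.38, 0.20 and 0.58 in the 3 comparisons, with U87MGR replicate 2 at 8.78 and replicate 1 at 9.70.

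**Figure D4:**
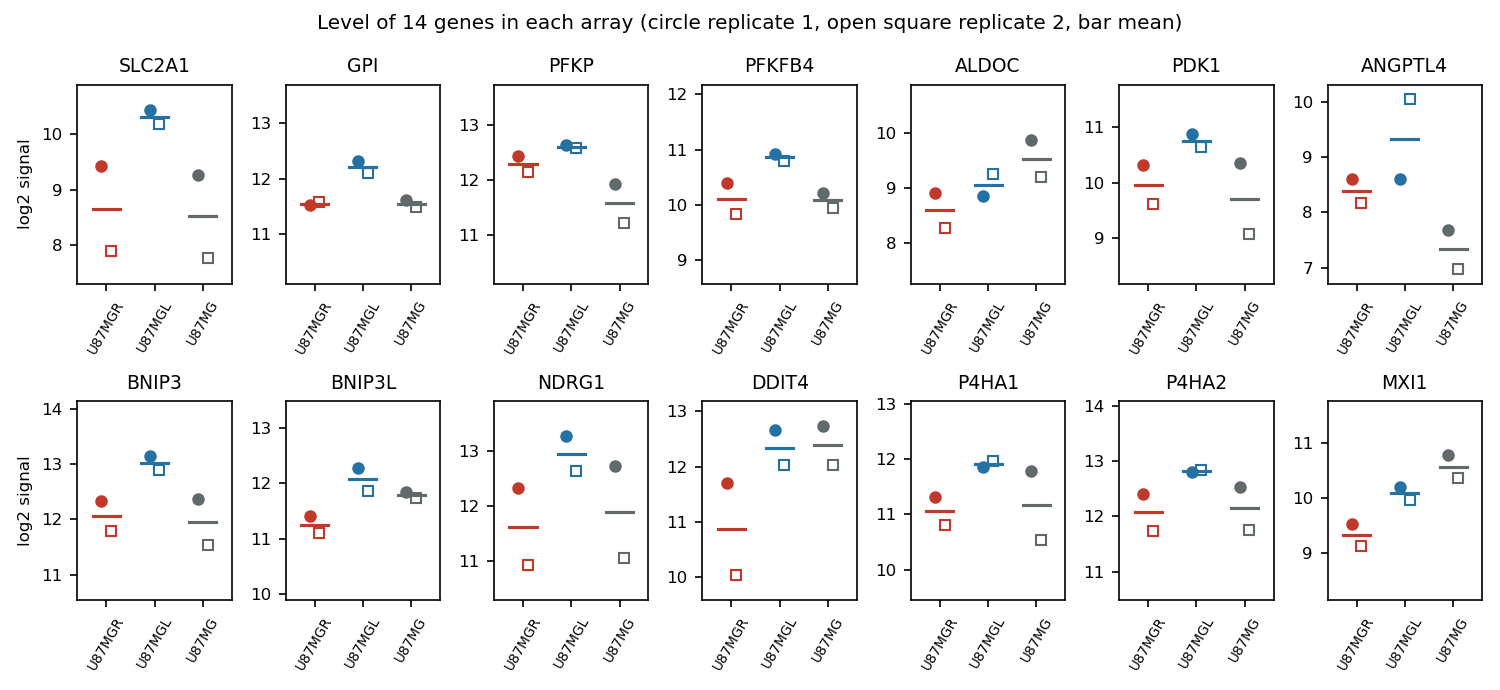
Log2 signal (vertical axes, each spanning 3.6 units) of the 14 genes described array by array, in U87MGR, U87MGL and U87MG from left to right; filled circles are replicate 1, open squares replicate 2 and bars the group mean. The U87MGL mean is highest in all panels but MXI1, ALDOC and DDIT4, where U87MG is highest, and replicate 2 is the lower one of U87MGR in all panels but GPI.

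The 15 glycolytic enzymes had median log2 fold changes of -0.25 between the derivatives, 0.07 in U87MGR over U87MG and 0.37 in U87MGL over U87MG. limma called none of the 15, and their SEs ran from 0.15 to 0.31; before adjustment 1 was higher and 1 lower between the derivatives, 2 and 1 in U87MGR over U87MG, and 5 and 1 in U87MGL over U87MG at p under 0.05 (over all tested genes 3.91% and 4.94%, 11% and 9.78%, and 13.2% and 10.1%). GPI, the isomerase of the second step, had 11.53 and 11.57 in U87MGR, 12.32 and 12.11 in U87MGL, and 11.61 and 11.48 in U87MG. U87MGL lay above the other 4 arrays, and U87MGR and U87MG differed by 0.0036 (95% confidence interval -0.37 to 0.38). It was 1.59-fold lower in U87MGR than in U87MGL (-0.67, SE 0.16, limma adjusted p = 0.242) and 1.59-fold higher in U87MGL than in U87MG (0.67, SE 0.16, limma adjusted p = 0.0612). Without U87MGR replicate 2, that is within the shared spike-in cluster, the difference between the derivatives was as large (-0.69).

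Isozymes of the same step had unlike patterns, though no difference between isozymes was tested. PFKP, the platelet form of phosphofructokinase, had 12.43 and 12.14 in U87MGR, 12.64 and 12.58 in U87MGL, and 11.93 and 11.22 in U87MG, so that both derivatives lay above the parental line. Relative to U87MG its log2 fold change was 0.71 in U87MGR (SE 0.25, limma adjusted p = 0.175) and 1.03 in U87MGL (SE 0.25, limma adjusted p = 0.066), and the derivatives differed by -0.32. PFKM, the muscle form, was the 1 gene of the set higher in U87MGR than in U87MGL, by 0.52 (SE 0.20, limma adjusted p = 0.516), with 11.00 and 11.12 in U87MGR, 10.37 and 10.70 in U87MGL, and 10.84 and 11.21 in U87MG. PFKL, the liver form, differed by -0.38, -0.17 and 0.21 in the 3 comparisons. ALDOC, the brain aldolase, had 8.92 and 8.27 in U87MGR, 8.86 and 9.26 in U87MGL, and 9.87 and 9.19 in U87MG. Both U87MGR arrays lay below both U87MG arrays (log2 fold change -0.93, SE 0.31, limma adjusted p = 0.147), whereas ALDOA, the ubiquitous aldolase, differed by -0.07 there. HK1, the hexokinase bound to mitochondria in brain, was higher in both derivatives than in U87MG, by 0.47 in U87MGR and 0.49 in U87MGL (SE 0.16 each), and HK2, the hexokinase induced in tumours, differed by -0.37 and -0.12.

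The enzymes of the lower part of glycolysis were abundant, and their brightest probe sets gave small differences. TPI1, PGK1, PGAM1, ENO1, ENO2 and LDHA, which carry triose phosphates to lactate, had log2 fold changes of -0.44 to -0.20 in U87MGR relative to U87MGL and of 0.34 to 0.52 in U87MGL relative to U87MG. LDHA, which turns pyruvate into lactate, had 14.06 and 13.92 in U87MGR, 14.28 and 14.21 in U87MGL, and 13.96 and 13.67 in U87MG. PGK1, the enzyme of the first step that yields ATP, had 13.42 and 13.02 in U87MGR, 13.72 and 13.60 in U87MGL, and 13.39 and 12.96 in U87MG. In both genes U87MGL stood above the other 4 arrays, without a call. Other PGK1 probe sets, all of lower signal, differed by -1.33 to -0.25 between the derivatives, and the dimmest of TPI1 by 1.14 in U87MGL relative to U87MG, so the size depended on the probe set. GAPDH held the highest value of the whole table, 14.58 in U87MGL replicate 1, and differed by -0.02, 0.07 and 0.09 in the 3 comparisons. These enzymes lay at or above the 94.9th percentile of tested genes by signal.

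Of the other hypoxia targets, MXI1 carried the 1 call. MXI1, a repressor that competes with MYC for its partner MAX, had 9.52 and 9.14 in U87MGR, 10.20 and 9.97 in U87MGL, and 10.77 and 10.36 in U87MG. The 3 groups did not overlap, with U87MGR lowest and U87MG highest. It fell 2.36-fold in U87MGR relative to U87MG (log2 fold change -1.24, SE 0.22, limma adjusted p = 0.0358); over the alternative settings the log2 fold change was -1.64 to -1.03 and the adjusted p 0.0265 to 0.202. Leaving out a U87MGL array lost the call with the fold change as before, since only the estimate of the spread differed. U87MGR differed from U87MGL by -0.75 (SE 0.22, limma adjusted p = 0.367), and U87MGL differed from U87MG by -0.48 (SE 0.22, limma adjusted p = 0.238). Within spike-in clusters MXI1 differed by -0.56 from U87MGL and by -1.64 from U87MG.

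DDIT4, an inhibitor of growth signalling through mTOR, and NDRG1, a stress-induced gene linked to reduced spread of tumours, were with SLC2A1 among the genes with the widest spread between replicates. DDIT4 had 11.71 and 10.05 in U87MGR, 12.66 and 12.03 in U87MGL, and 12.73 and 12.04 in U87MG. Both U87MGR arrays lay below the other 4. The log2 fold change of DDIT4 in U87MGR was -1.47 relative to U87MGL (SE 0.53, limma adjusted p = 0.477) and -1.51 relative to U87MG (SE 0.53, limma adjusted p = 0.172). With 1 array left out the first ranged from -2.30 to -0.64 and the second from -2.34 to -0.68, smallest without U87MGR replicate 2. NDRG1 had 12.32 and 10.93 in U87MGR, 13.27 and 12.63 in U87MGL, and 12.72 and 11.06 in U87MG. Only U87MGR and U87MGL were apart, by a log2 fold change of -1.32 (SE 0.62, limma adjusted p = 0.606), or of -0.63 without U87MGR replicate 2.

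BNIP3 and BNIP3L encode related proteins of the outer mitochondrial membrane that mark mitochondria for autophagy. No difference between these genes was tested. BNIP3 had 12.34 and 11.80 in U87MGR, 13.14 and 12.90 in U87MGL, and 12.36 and 11.54 in U87MG. U87MGL was above the other 4 arrays. The log2 fold change was -0.95 in U87MGR relative to U87MGL (SE 0.31, limma adjusted p = 0.418) and 1.07 in U87MGL relative to U87MG (SE 0.31, limma adjusted p = 0.098). BNIP3L had 11.41 and 11.10 in U87MGR, 12.28 and 11.86 in U87MGL, and 11.84 and 11.74 in U87MG. For BNIP3L too U87MGL was above the other 4 arrays, by a narrow margin, and both U87MGR arrays were the lowest of all. The log2 fold changes of BNIP3L in U87MGR were -0.82 relative to U87MGL (SE 0.20, limma adjusted p = 0.264) and -0.54 relative to U87MG (SE 0.20, limma adjusted p = 0.196). Its second probe set differed by -0.86 and -0.44.

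The secreted factors ANGPTL4, VEGFA and ADM each had a higher mean in U87MGL than in U87MGR and U87MG. No difference between these genes was tested. ANGPTL4, a secreted inhibitor of lipoprotein lipase that also acts on vessels, had 8.61 and 8.17 in U87MGR, 8.61 and 10.04 in U87MGL, and 7.69 and 6.98 in U87MG. The derivatives overlapped, and both lay above the parental line, with log2 fold changes of 1.06 in U87MGR (SE 0.46, limma adjusted p = 0.257) and 1.99 in U87MGL (SE 0.46, limma adjusted p = 0.0596). U87MGL replicate 2 stood 1.43 above replicate 1, and the second difference was 2.71 with replicate 2 as the lone U87MGL array (limma adjusted p = 0.0348, the spread coming from the other groups) and 1.27 with replicate 1 alone. VEGFA, the main growth factor for blood vessels, had 13.00 and 12.05 in U87MGR, 13.08 and 13.05 in U87MGL, and 12.79 and 12.39 in U87MG. It differed by -0.54 between U87MGR and U87MGL, or by -0.06 within the shared spike-in cluster. ADM, the vasodilator peptide adrenomedullin, differed by -0.30, 0.06 and 0.35. CA12, a carbonic anhydrase of the cell surface that handles acid, had 12.34 and 11.39 in U87MGR, 12.57 and 12.40 in U87MGL, and 12.74 and 12.25 in U87MG, with U87MGR replicate 2 alone at the low end.

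The oxygen-using dioxygenases of the set were P4HA1 and P4HA2, which hydroxylate collagen, the HIF hydroxylases EGLN1 and EGLN3, and the histone demethylase KDM3A. P4HA1 had 11.32 and 10.81 in U87MGR, 11.86 and 11.97 in U87MGL, and 11.79 and 10.54 in U87MG. P4HA2 had 12.40 and 11.74 in U87MGR, 12.80 and 12.84 in U87MGL, and 12.52 and 11.76 in U87MG. In both, U87MGL lay above the other 4 arrays, and the log2 fold changes of U87MGR against U87MGL were -0.85 (SE 0.39, limma adjusted p = 0.596) and -0.75 (SE 0.31, limma adjusted p = 0.553). EGLN1 differed by -0.28, -0.04 and 0.23 in the 3 comparisons and KDM3A by -0.50, -0.41 and 0.09. EGLN3 was dim, at 5.12 to 5.68 over the arrays. BHLHE40, a repressor tied to the circadian clock, differed by -0.28, -0.02 and 0.26, and ANKRD37, an ankyrin-repeat protein, by -0.76, -0.29 and 0.47.

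The factors that act on these targets had medians near 0. Of 13 HIF factors and regulators 12 were tested, with median log2 fold changes of 0.0037 between the derivatives, 0.0098 in U87MGR over U87MG and 0.10 in U87MGL over U87MG. limma called none in these comparisons. With no adjustment, 1 was lower in the first, 1 higher in the second, and 2 were higher and 1 lower in the last at p under 0.05. Over all tested genes the matching shares were 4.94%, 11%, 13.2% and 10.1%. The largest log2 differences were in CITED2 (-0.63), which competes with HIF for its coactivator, and in the ubiquitin ligase genes RBX1 (-0.56) and VHL (-0.34) between the derivatives. VHL had 7.15 and 6.06 in U87MGR and 6.93 and 6.96 in U87MGL, so its arrays overlapped. Within the shared spike-in cluster it differed by 0.21, in the opposite direction. HIF1AN, the asparaginyl hydroxylase that blunts HIF activity, led in U87MGR over U87MG (0.65, limma adjusted p = 0.0814). HIF1A had log2 signals of 12.82 and 12.74 in U87MGR, 12.86 and 12.89 in U87MGL, and 12.79 and 12.74 in U87MG, with both U87MGL arrays slightly above the other 4. EPAS1, the HIF alpha subunit of endothelium and glioma stem cells, had 12.42 and 12.33 in U87MGR, 12.31 and 12.16 in U87MGL, and 12.66 and 12.77 in U87MG, and was highest in the parental line without a call. Levels of HIF proteins, which are set mainly by degradation, were not measured.

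Further hypoxia targets outside the set were a list of 26, of which 22 were tested. They lay mostly below 0 between the derivatives (19 of 22, against 49.7% of all tested genes). In U87MGL over U87MG most lay above 0 (20 of 22, against 48.1%). Their median log2 fold changes were -0.60 between the derivatives, 0.14 in U87MGR over U87MG and 0.77 in U87MGL over U87MG; within the spike-in clusters the first was -0.36 and the second -0.43. limma called 1 of them, the secreted glycoprotein gene STC1, which rose 3.97-fold in U87MGL relative to U87MG (log2 fold change 1.99, SE 0.29, adjusted p = 0.0187), where 3.02% of all tested genes were called higher. The call was lost with 2 spike-in clusters as a block (1.18, limma adjusted p = 0.49) or 3 (1.33, limma adjusted p = 0.217), and without U87MGL replicate 1 (limma adjusted p = 0.0548) or replicate 2 (limma adjusted p = 0.127). STC1 had 13.04 and 12.23 in U87MGR, 13.00 and 13.41 in U87MGL, and 11.07 and 11.37 in U87MG; both derivatives stood above the parental line, and the difference of U87MGR (1.42) did not pass (limma adjusted p = 0.0524). The largest differences in U87MGR against U87MGL were in TMEM45A (-1.98), ZNF395 (-1.45) and the collagen-crosslinking oxidase LOX (-1.45), none of them called. In U87MGL against U87MG, LOX differed by 1.91 and the collagen lysyl hydroxylase PLOD2 by 1.63.

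Genes of glucose and lactate metabolism outside the set, 23 tested of 27, had median log2 fold changes of -0.17 between the derivatives, -0.19 in U87MGR over U87MG and 0.10 in U87MGL over U87MG. In U87MGR against U87MG limma called 2 lower, PDK2, a sister kinase of PDK1 (log2 fold change -0.97, adjusted p = 0.0441), and TKT, the transketolase of the pentose phosphate pathway (-0.78, adjusted p = 0.0453), where 1.44% of all tested genes were called lower. Leaving out any array lost the call of PDK2 (limma adjusted p of 0.0675 to 0.227), and any but U87MG replicate 1 lost that of TKT (limma adjusted p of 0.0874 to 0.208). Both calls were also lost with 2 or 3 spike-in clusters as a block (-1.11 and -1.20 for PDK2, -0.79 and -0.70 for TKT). With averaged probe sets neither passed (PDK2 -0.85, limma adjusted p = 0.0905, and TKT -0.31, limma adjusted p = 0.285). Quantile normalization and a replicate block lost that of TKT (limma adjusted p of 0.0595 and 0.0659). The gene-specific TKT probe set differed by 0.64, in the opposite direction. PDK2 had 7.55 and 7.27 in U87MGR, 7.72 and 7.41 in U87MGL, and 8.47 and 8.29 in U87MG. The largest differences there were in PGD (-1.09), an enzyme of the same pathway, and GYS1 (1.09), neither of them called. GYS1, the glycogen synthase of muscle and other tissues, rose 3.38-fold in U87MGL relative to U87MG (1.76, SE 0.35, limma adjusted p = 0.0404), with 8.95 and 8.46 in U87MGR, 9.36 and 9.39 in U87MGL, and 8.16 and 7.07 in U87MG. That call was lost with 2 spike-in clusters as a block (1.27, limma adjusted p = 0.666) or 3 (0.72, limma adjusted p = 0.259), and without any array other than U87MG replicate 1 (limma adjusted p of 0.0616 to 0.205). limma called none between the derivatives, where 1 was higher and 1 lower before adjustment at p under 0.05 (3.91% and 4.94% of all tested genes).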

How the data were processed

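The members and gene lists were chosen with earlier results of these data known. The deposited values are log2 signals of 54675 probe sets on 6 arrays; biotin-labelled cRNA was made from total RNA, per the labels' protocols, and how they were background-corrected and normalized was not given in the sources used here. That unit was checked on the values, which lay between 2.38 and 14.58 with array medians of 5.29 to 5.35. No further normalization was applied. Gene symbols came from the probe table: 41097 probe sets had 1 symbol, 1801 several and 11777 none. Genes whose brightest 1-symbol probe set had a mean at or above the 40th percentile of all probe sets (4.73) were tested.

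One limma model (version 3.58.1, R 4.3.3) with a mean per group was fitted to all 6 arrays, with 3 residual and 4.05 prior degrees of freedom. Calls needed a two-sided p under 0.05 after Benjamini-Hochberg adjustment over the 14513 tested genes of a comparison. The p-values measure the spread among these arrays only; precision is limited by their number, and the median SE was 0.19. Values array by array are given for members called in any comparison, for the 4 members with the largest fold change in each, and for members with both arrays of a group above or below the other 4 and a mean differing by over 0.5 from both other groups; further members were added where they complete a step or family. Up to 3 genes were named per further list and comparison, with some chosen after their values were seen. Medians over lists are descriptions without a test.

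On simulated arrays with 14513 genes, the fit for U87MGR against U87MGL recovered 14.9% of genes changed by 1 log2 unit. It recovered 79.1% of those changed by 2 and 92.4% of those changed by 4. The matching shares were 37.3%, 86.6% and 100% for U87MGR against U87MG. For U87MGL against U87MG they were 34.3%, 80.6% and 95.5%. Each share rests on 66 or 67 changed genes. Every comparison was simulated with the same spread and the same number of arrays. Differences in these shares between comparisons therefore come from the random draw and do not rank the comparisons. Equally numbered replicates were not treated as pairs; after group means were removed they correlated across genes at 0.01 (U87MGR and U87MGL), 0.11 (U87MGR and U87MG) and -0.09 (U87MGL and U87MG). Alternatives covered the probe set, the filter, the scaling, the variance model, the samples fitted, blocks for replicate number and spike-in cluster, and each array left out.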

Additional observations from a re-analysis of the deposited data

Results flagged for a closer look

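BNIP3L was flagged for its difference between U87MGR and U87MGL. In addition, both U87MGR arrays were below both U87MG arrays and both U87MGL arrays were above them. The flag did not rest on that order, and its share over all tested genes was not counted. The U87MGL side was narrow, at 0.28 (SE 0.20), with U87MGL replicate 2 at 11.86 and U87MG replicate 1 at 11.84, and its sign turned with 2 or 3 spike-in clusters as a block (-0.028 and -0.080). The difference between the derivatives was -0.82 on the log2 scale (SE 0.20) and, tested as U87MGR against U87MGL, did not pass in limma (adjusted p = 0.264). Groups of 2 arrays are too small to search for a single outlying array.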

How the results depend on the processing

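In U87MGR against U87MGL no member was called under any alternative. In U87MGR against U87MG, 0 members were called lower when only those 2 groups were fitted or with 2 spike-in clusters as a block. Of all tested genes 122 and 6 were. With 3 clusters 2 members were called lower (MXI1 and SLC2A3, among 135 of all tested genes). With 1 array left out the log2 fold change of MXI1 was -1.44 to -1.03. In U87MGL against U87MG, 2 members were called higher with the mean of a gene's probe sets (GPI and SLC2A1, among 428 of all tested genes). With gene-specific probe sets 2 were (SLC2A1 and TPI1, among 414), and with trended and robust variance 2 (GPI and PFKP, among 460). With replicate number as a block 2 were called higher there (BNIP3 and SLC2A1, among 370), though the numbers do not pair these arrays. Members called higher there with 1 array left out are not listed here, since 1 group was then a lone array. The median of the glucose and glycolysis genes in U87MGR against U87MGL was -0.17 within the shared spike-in cluster and with either cluster block, and -0.47 to -0.17 with 1 array left out. Their median in U87MGR against U87MG was -0.13 within the cluster and with 3 clusters, and -0.063 to 0.24 with 1 array left out; in U87MGL against U87MG it was 0.17 with 2 clusters, 0.00017 with 3, and 0.28 to 0.53 with 1 array left out. The other targets had medians of -0.77 in U87MGR against U87MG within the cluster and with 3 clusters, and -0.52 to 0.18 with 1 array left out. In U87MGL against U87MG they had medians of -0.22 with 2 clusters and -0.60 with 3, and 0.069 to 0.61 with 1 array left out. The cause of these shifts was not tested.

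Of the differences of single genes that changed sign, those in U87MGL against U87MG were up to 1.79 in size. In U87MGR against U87MG, BNIP3 was -0.030 with averaged probe sets, -0.16 with 2 clusters and -0.56 with 3. PFKFB4 was -0.044 with averaged probe sets, -0.025 with arrays centred, -0.25 with 2 clusters and -0.38 with 3, and GPI was -0.048 with arrays centred and -0.037 with 3 clusters. PDK1 was -0.10 and -0.74, and SLC2A1 -0.63 and -1.37, with 2 and 3 clusters. With 1 array left out the ranges there were -0.29 to 0.52 for BNIP3, -0.059 to 0.066 for GPI, -1.09 to 0.57 for NDRG1, -0.72 to 0.53 for P4HA1, -0.45 to 0.31 for P4HA2, -0.38 to 0.89 for PDK1, -0.25 to 0.30 for PFKFB4 and -0.63 to 0.91 for SLC2A1. In U87MGL against U87MG, BNIP3L was -0.028 and -0.080 and NDRG1 -0.33 and -1.16 with 2 and 3 clusters. With 3 clusters P4HA1 was -0.38, P4HA2 -0.38, PDK1 -0.30 and SLC2A1 -0.49, and DDIT4 ranged from -0.39 to 0.31 with 1 array left out. Counting each named gene in each comparison and setting as 1 result, 693 of the others kept their direction and side of the threshold. Of the rest, 14 passed it and 7 no longer did. Several settings, such as those of the filter and the variance model, cannot change a fold change. The 693 is therefore not a measure of how steady the genes were.

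Over all genes, the 438 higher and 261 lower in U87MGL against U87MG were 0 and 0 with either cluster block, and 17 to 883 and 20 to 667 with 1 array left out. The 270 higher and 209 lower in U87MGR against U87MG were 5 and 6 with 2 clusters, 96 and 135 with 3, and 1 to 486 and 0 to 391 with 1 array left out. The 6 higher and 17 lower in U87MGR against U87MGL varied over all alternatives from 0 to 8 and from 0 to 32. Fitting only the 2 groups of a comparison gave 124 and 91 in U87MGL against U87MG and 111 and 122 in U87MGR against U87MG. Precision is limited by 2 arrays per group.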

Other observations

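Several genes of the set had further probe sets bright enough for testing, 42 over 19 genes. Of these, 38 had the same sign as the chosen probe set in U87MGR against U87MGL, 28 in U87MGR against U87MG and 33 in U87MGL against U87MG. For PGK1, one of the most abundant genes of the set, the chosen and brightest probe set gave the second smallest of its 6 differences between U87MGR and U87MGL (-0.44), and its probe sets of lower signal gave -0.80, -0.93, -0.67, -1.33 and -0.25. HK2 was an exception in sign, with -0.25 for the chosen probe set and 0.59 and 0.61 for the dimmer ones, as was ENO1, with 0.42 for its dimmest.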
